A study of Saccharomyces cerevisiae with 30 samples.

Results

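The phosphate regulon of budding yeast was followed in 10 genes, found by name in a table of 7127 genes: PHO84, PHO89, SPL2, PHO86, PHO81, VTC1, VTC3, PHO5, PHO8 and PHM8. RNA of whole cultures of haploid MATa yeast in the S288c background was sequenced at 0, 30, 60, 120 and 180 min after 1 µM beta-estradiol, in YPD, a rich glucose medium, at 30 °C. The strain with a removable centromere is called CEN4* before and cen4- after the hormone: lox sites, marked with KanMX, flank the centromere of chromosome IV, and a recombinase switched on by the hormone (GDP-creEBD78, marked with LEU2) cuts the centromere out. The CEN4 control strain carries a Cre fusion of the same name (GDP-cre EBD78), placed at ura3 and marked with LEU2, but no lox sites at the centromere. Each strain has the alleles his3-delta-1 and leu2-delta-0 as well as ura3-delta-0 and met15-delta-0, and each strain and time is represented by 3 libraries from independent experiments, 30 in all. The share of cells that had lost the centromere at each time is not given in the sources used here, and no group without beta-estradiol was analysed, so time, growth of the culture and the hormone cannot be told apart within a strain.

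Yeast meets a shortage of phosphate through the PHO pathway. When phosphate is scarce, the inhibitor Pho81 holds back the cyclin-dependent kinase Pho80-Pho85, the transcription factor Pho4 stays in the nucleus and, with Pho2, switches on genes for high-affinity phosphate uptake, for phosphatases that free phosphate outside and inside the cell, and for enzymes that store phosphate as polyphosphate in the vacuole. Pho4 binds DNA at the sequence CACGTG and, more weakly, at CACGTT. YPD holds phosphate, so the expression described here is that of cells not deliberately starved.

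The stretches of promoter that hold these Pho4 core sequences are shown because they are what most of the 10 genes share. They were read from the R64 genome, upstream of the start codon, and run 5′ to 3′ along the strand of the gene; capitals mark CACGTG, and CACGTT or its reverse AACGTG.
PHO84: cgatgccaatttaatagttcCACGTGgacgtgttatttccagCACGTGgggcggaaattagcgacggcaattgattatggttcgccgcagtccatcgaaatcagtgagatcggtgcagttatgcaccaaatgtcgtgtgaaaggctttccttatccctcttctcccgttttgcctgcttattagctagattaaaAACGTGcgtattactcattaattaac
PHO89: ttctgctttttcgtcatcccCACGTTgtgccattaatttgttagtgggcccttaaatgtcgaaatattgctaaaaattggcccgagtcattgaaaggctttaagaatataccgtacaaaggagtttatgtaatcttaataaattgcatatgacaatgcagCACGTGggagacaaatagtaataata
PHO5: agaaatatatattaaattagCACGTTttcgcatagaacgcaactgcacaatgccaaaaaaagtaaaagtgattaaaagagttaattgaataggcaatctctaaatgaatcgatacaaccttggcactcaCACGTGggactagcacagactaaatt
SPL2: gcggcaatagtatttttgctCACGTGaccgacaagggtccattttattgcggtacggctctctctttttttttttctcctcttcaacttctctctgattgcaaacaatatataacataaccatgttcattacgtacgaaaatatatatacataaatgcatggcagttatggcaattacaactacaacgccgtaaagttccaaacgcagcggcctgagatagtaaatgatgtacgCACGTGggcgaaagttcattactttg
PHO86: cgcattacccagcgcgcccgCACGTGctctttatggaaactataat
PHO81: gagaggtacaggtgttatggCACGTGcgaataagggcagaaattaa
VTC3: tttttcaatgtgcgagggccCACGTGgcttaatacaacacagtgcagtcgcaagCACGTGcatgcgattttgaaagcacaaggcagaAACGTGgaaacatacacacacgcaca
VTC1: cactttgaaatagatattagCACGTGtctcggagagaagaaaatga
PHO8: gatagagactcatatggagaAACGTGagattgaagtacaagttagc
PHM8: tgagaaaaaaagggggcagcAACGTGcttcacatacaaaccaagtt
The stretches lie at chrXIII:26037-26256 (PHO84), chrII:798820-799005 (PHO89), chrII:431179-431333 (PHO5), chrVIII:375222-375481 (SPL2), chrVII:958529-958574 (PHO81), chrXVI:517271-517383 (VTC3) and chrIV:1420605-1420650 (PHO8), all on the minus strand, and at chrX:192321-192366 (PHO86), chrV:302629-302674 (VTC1) and chrV:225594-225639 (PHM8) on the plus strand. Cores outside these stretches are not printed: those of SPL2 at 90 and 31 bases before the start codon, and the variant cores of PHO86 at 496 and PHO81 at 8 bases.

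Within 500 bases before the start codon, searched on both strands, CACGTG was present in 8 of the 10 genes, against 374 of 6000 yeast promoters (6.23%). PHO8 and PHM8 were the genes without it. A second copy was present in PHO84, SPL2 and VTC3, 3 of 10 genes against 0.683% of promoters, and SPL2 held 4 copies. CACGTT, or AACGTG on the other strand, was present in 8 of 10 genes against 16.0% of promoters, and absent from SPL2 and VTC1. PHO8, which is induced more weakly than PHO5 by starvation, had a CACGTG 534 bases before its start codon, outside the window. These matches describe letters in the genome and are not evidence that Pho4 was bound in these cells. The genes were chosen as phosphate regulon genes, so the contrast with all promoters is not separate evidence that Pho4 regulates them.

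**Figure D1:**
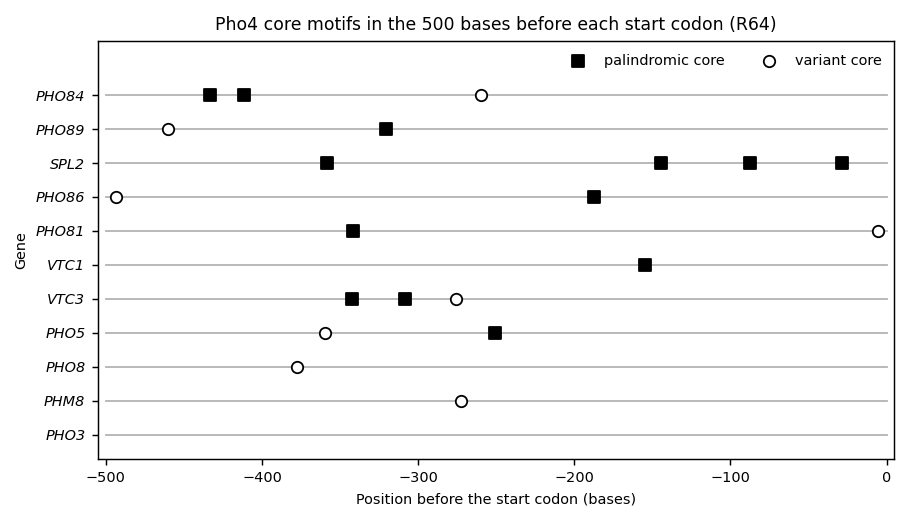
Positions of the Pho4 core sequences before the start codon of each gene; the horizontal axis is distance in bases, filled squares are the palindromic core (CACGTG) and open circles its variant (CACGTT on either strand). SPL2 holds 4 palindromic cores, PHO8 and PHM8 none within 500 bases, and PHO3, a paralog of PHO5, has neither core.

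Values are normalised counts: the reads of a gene divided by the size factor of its library. Library totals were 8218002 to 14956813 reads, and the lowest member value rested on 48 reads (PHO89 in 1 CEN4 library at 180 min). All 10 genes passed the filter of a mean of at least 10 normalised counts, with 5948 genes tested in all. Each is a single coding exon: PHO84 at chrXIII:24037-25800, PHO89 at chrII:796798-798522, PHO5 at chrII:429548-430951, PHO8 at chrIV:1418550-1420250, PHO81 at chrVII:954674-958210, PHO86 at chrX:192531-193466, SPL2 at chrVIII:374654-375100, VTC1 at chrV:302806-303195, VTC3 at chrXVI:514511-517018 and PHM8 at chrV:225889-226854 (R64). The annotated antisense RNA YNCM0001W overlaps PHO84, and since the strand setting of the read counting is not given in the sources used here, its reads and those of PHO84 cannot be told apart. The cultures were checked against their labels: 6 of 6 MATa marker genes were expressed in every library (lowest value 804 normalised counts, AGA2). Summed levels of 4 MATalpha markers were 586 to 781. Most of this was SAG1, at 401 to 565, with MF(ALPHA)2 at 77.1 to 156, STE3 at 46.9 to 92.6 and the alpha-factor gene MF(ALPHA)1 at 3.55 to 24.6. URA3 and MET17 (MET15), which both genotypes lack, were at 0 reads throughout the 30 libraries. HIS3 had 533 to 831 normalised counts although both genotypes list his3-delta-1, and the part of the gene these reads come from was not tested. LEU2, carried by both strains beside the recombinase, had 1991 to 6238 and was lower in CEN4* than in CEN4 at 0 min (0.557 times the CEN4 level). In RNA from whole cultures, a change in the share of expressing cells cannot be told apart from a change in RNA per cell.

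Before beta-estradiol, most of the regulon was lower in CEN4* than in CEN4. Of the 10 genes, 8 were lower and 1, PHM8, was higher at an adjusted p below 0.05, against 7.06% of all tested genes lower, 8.83% higher and 15.9% in either direction. PHO89 is counted here and in the values below, although the fall it was picked for starts from these 0 min libraries. The median log2 difference was -0.31 over the 10 genes and -0.00 over all tested genes. The 3 CEN4* values lay below all 3 CEN4 values in 8 of the genes and above them in 2, against 15.1% and 14.8% of all tested genes. Throughout, errors of levels are SD with n = 3 libraries, and errors of log2 differences are SE.

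PHO84, the high-affinity transporter that carries phosphate with protons, had 7526, 7444 and 7008 normalised counts in CEN4* libraries, against 10358, 10985 and 10755 in CEN4 libraries. The groups did not overlap, and the CEN4* level was 0.685 times that of CEN4 (log2 -0.55 ± 0.05, adjusted p = 5.8e-11). PHO89, the transporter that carries phosphate with sodium, had 824, 778 and 723 in CEN4* and 1122, 1092 and 1018 in CEN4 (log2 -0.48 ± 0.13, a description only). SPL2, which restrains low-affinity phosphate transport when phosphate is limiting, had 319.6, 326 and 265 in CEN4* and 430.0, 497 and 419 in CEN4 (log2 -0.56 ± 0.10, adjusted p = 1.4e-05). These were the largest deficits among the members, and in each the highest CEN4* library was below the lowest CEN4 library. PHO86, an endoplasmic reticulum protein that Pho84 needs to reach the cell surface, differed least: 3279 ± 37.9 in CEN4* and 3542 ± 83.7 in CEN4 (log2 -0.11 ± 0.04, adjusted p = 0.047), and this call was lost under 10 of 17 alternatives, among them edgeR, equal library totals (adjusted p = 0.37) and leaving out any CEN4* library or CEN4 replicate 2 or 3.

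The genes of regulation and storage were lower as well. PHO81, the kinase inhibitor at the head of the pathway, averaged 913 ± 54.6 in CEN4* and 1099.6 ± 6.24 in CEN4 (log2 -0.27 ± 0.05, adjusted p = 2.6e-05). VTC1 and VTC3 encode subunits of the vacuolar complex that makes polyphosphate. VTC1 had 2869, 2946 and 2895 in CEN4* and 3604, 3756 and 3724 in CEN4 (log2 -0.35 ± 0.04, adjusted p = 2.1e-09), and VTC3 averaged 2158 ± 143 in CEN4* and 2932 ± 57.3 in CEN4 (log2 -0.44 ± 0.05, adjusted p = 1.1e-11). Neither gene's libraries overlapped between the strains.

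The phosphatases differed among themselves. PHO5, the secreted acid phosphatase, was lower, at 784, 726 and 823 in CEN4* against 948, 916 and 948 in CEN4 (log2 -0.27 ± 0.06, adjusted p = 0.00038). PHO8, the vacuolar alkaline phosphatase, averaged 1852 ± 38.1 in CEN4* and 1721 ± 72.3 in CEN4, a difference that did not pass the test (log2 0.11 ± 0.04, adjusted p = 0.088). PHM8, an intracellular phosphatase of nucleotides and lysophosphatidic acid, was higher, at 521, 493 and 515 in CEN4* against 313, 316 and 281 in CEN4, a ratio of 1.68 (log2 0.75 ± 0.06, adjusted p = 1.2e-16). The same libraries differed in stress genes. All 8 of a list of environmental stress genes were higher in CEN4*, where 8.83% of all tested genes were called higher. This list was chosen with earlier results of these data known. Its summed levels were 19758 to 21991 in CEN4* and 8093 to 10216 in CEN4. The 6 MATa markers were lower in CEN4*, with a median log2 difference of -0.24, where 7.06% of all tested genes were called lower. The part of either in the phosphate genes was not tested. With equal library totals, 2 members were higher and 7 lower at 0 min, while over all genes the calls moved to 948 higher and 215 lower, against 525 higher and 420 lower as deposited.

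**Figure D2:**
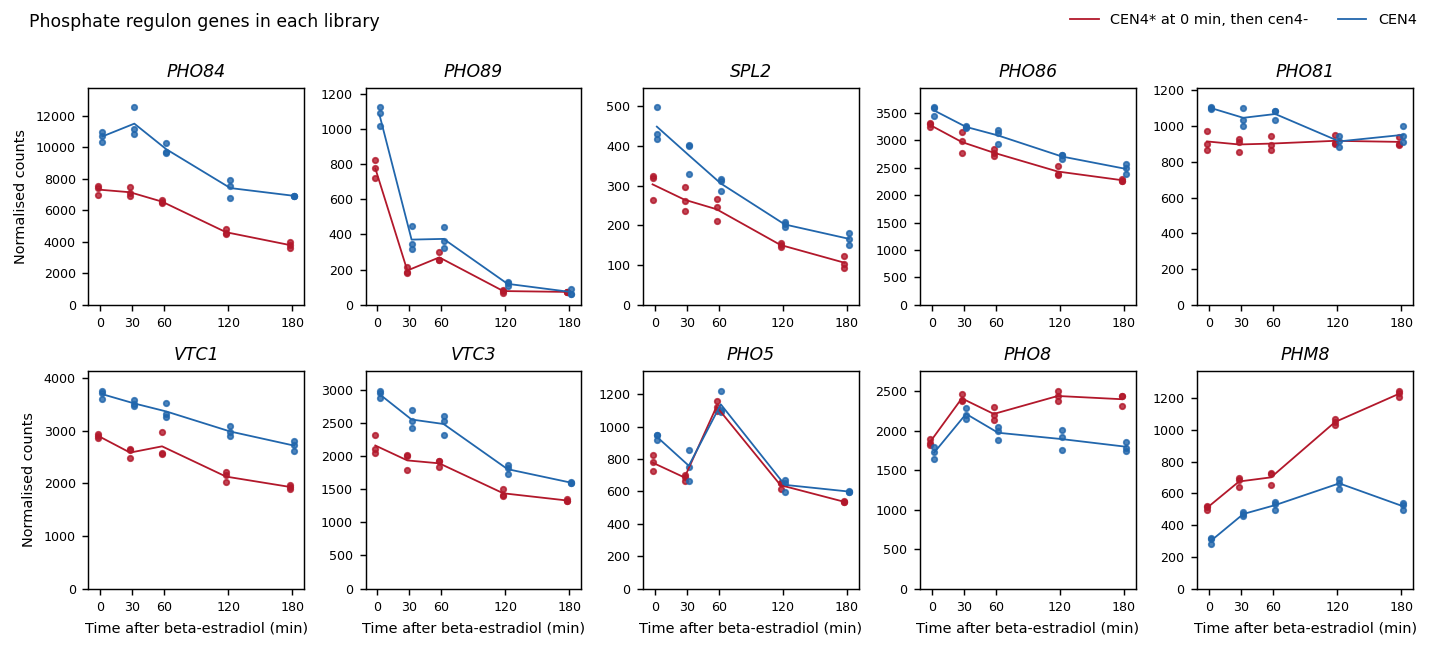
Normalised counts (vertical axis, from 0) of the 10 genes against time after beta-estradiol; points are libraries, lines join means of 3, red is CEN4* at 0 min and cen4- later, blue is CEN4. PHO84, SPL2, VTC1 and VTC3 lie below CEN4 in every cen4- mean and fall in both strains, PHO89 falls to 73.5 in cen4- and 72.5 in CEN4, PHO5 peaks at 60 min, and PHM8 climbs.

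With time, uptake and storage genes fell in both strains while PHM8 climbed. At 180 min against 0 min, 2 of the 9 members other than PHO89 were higher and 6 lower in cen4-, where 37.5% of all tested genes were higher, 37.7% lower and 75.2% changed in either direction. In CEN4 1 was higher and 7 lower, where 36.0% of all genes were higher, 35.2% lower and 71.2% changed. With so many genes changed, a call in 8 of 9 members says little of the regulon, and the members are described by their direction and size: the median log2 change of the 9 was -0.54 in cen4- and -0.52 in CEN4, against -0.00 and 0.00 over all genes. With equal totals 3 were higher and 6 lower in cen4- and 2 higher and 6 lower in CEN4, while over all genes the calls became 3746 higher and 1051 lower in cen4- and 3304 higher and 1193 lower in CEN4. PHO89 is left out of these counts because it was picked for its fall with time, and its changes are given as a description with no test. The comparisons with 0 min reuse the same 0 min libraries.

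PHO89 had the steepest fall. In the CEN4* strain its normalised counts were 824, 778 and 723 at 0 min, 216, 186 and 183 at 30 min, 255, 252 and 301 at 60 min, 86.1, 67.8 and 81.0 at 120 min, ending with 72.5, 75.6 and 72.2 at 180 min. In CEN4 they were 1122, 1092 and 1018 at 0 min, 447, 346 and 319 at 30 min, 440.2, 361 and 322 at 60 min, 131, 105 and 121 at 120 min, ending with 91.7, 61.9 and 63.9 at 180 min. Most of the fall came in 2 bouts, before 30 min and between 60 and 120 min. Between them, the 60 min libraries lay above those of 30 min in cen4- and overlapped with them in CEN4. At 180 min the log2 change was -3.38 ± 0.13 in cen4- and -3.90 ± 0.13 in CEN4, and PHO89 ranked 1 from the lowest of 5948 genes in each strain.

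SPL2 fell next most among the members. It had 123, 102 and 93.7 normalised counts in cen4- at 180 min, against 319.6, 326 and 265 at 0 min (log2 -1.51 ± 0.10, adjusted p = 4.5e-21). In CEN4 it had 152, 166 and 181 at 180 min, against 430.0, 497 and 419 at 0 min (log2 -1.43 ± 0.10, adjusted p = 8.6e-20). Among all 5948 genes its fall ranked 34 from the lowest in cen4- and 27 in CEN4.

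PHO84 stayed near its starting level to 30 min and then declined. In the CEN4* strain it averaged 7326 ± 279 normalised counts at 0 min, 7155 ± 288 at 30 min, 6558 ± 83.1 at 60 min, 4616 ± 161 at 120 min and 3798 ± 182 at 180 min, a log2 change at 180 min of -0.95 ± 0.05, adjusted p = 6.3e-19. In CEN4 the averages were 10699 ± 317, 11515 ± 913, 9888 ± 350.3, 7422 ± 581 and 6925 ± 30.6 at the same times (log2 -0.63 ± 0.05, adjusted p = 7.5e-14 at 180 min). At 30 min neither change passed the test, although the rise in CEN4 had an unadjusted p under 0.05 by limma. The small falls of PHO84 and VTC1 at 60 min, which had log2 changes of -0.16 and -0.11 in cen4- and -0.11 and -0.13 in CEN4, changed sign with equal library totals. That scaling raised the median of all genes by 0.14 to 0.31 log2 in cen4- and by 0.12 to 0.21 in CEN4 across the 4 times, whereas the deposited scaling keeps it near 0, so changes here are relative to the median gene.

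The polyphosphate genes fell in both strains, VTC3 by more than VTC1 in each. At 180 min against 0 min, VTC3 changed by log2 -0.70 ± 0.05, adjusted p = 3.6e-21 in cen4- and -0.88 ± 0.05, adjusted p = 1e-25 in CEN4, and VTC1 by -0.59 ± 0.04, adjusted p = 2.6e-19 in cen4- and -0.44 ± 0.04, adjusted p = 2.9e-14 in CEN4. PHO86 changed by log2 -0.53 ± 0.04, adjusted p = 9.5e-19 in cen4- and -0.52 ± 0.04, adjusted p = 3.7e-18 in CEN4. PHO81 had means between 897 and 917 normalised counts at all 5 times in cen4-, and no change since 0 min passed the test, whereas with equal totals it was higher at 180 min (log2 0.31). In CEN4 PHO81 averaged 1099.6 ± 6.24 at 0 min, 914 ± 29.7 at 120 min and 951 ± 45.2 at 180 min, a log2 change at 180 min of -0.21 ± 0.05, adjusted p = 0.00015, which was near 0 with equal totals (adjusted p = 0.97).

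**Figure D3:**
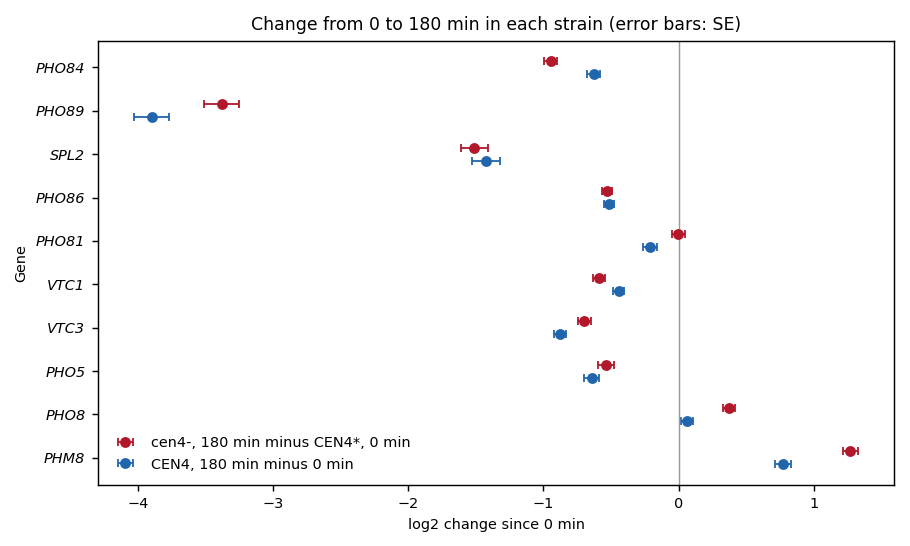
Log2 change from 0 to 180 min (horizontal axis, SE as bars) for each gene, in cen4- (red, upper) and CEN4 (blue, lower). PHO89 changed most (-3.38 in cen4- and -3.90 in CEN4), SPL2 next, and PHM8 and PHO8 lie right of 0 in both strains, although the PHO8 value in CEN4 passed the test only with equal totals, where PHO81 is above 0 in cen4- as well.

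Calls at the earlier times depended on the scaling. In cen4- 2 of the 9 members were higher, with 4 lower, after 30 min (62.2% of all genes called); after 60 min this was 3 against 5 (56.5%) and after 120 min 2 against 6 (72.0%). CEN4 gave 2 higher against 4 lower after 30 min (63.7%), 3 against 5 after 60 min (57.1%) and 2 against 7 after 120 min (70.6%). With equal library totals the lower calls at 30 and 60 min became 0 and 0 in cen4- and 1 and 1 in CEN4, while at 120 min 5 in cen4- and 6 in CEN4 were still lower.

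Of the single steps after 30 min, the one from 60 to 120 min had the most members called, 8 of the 9 in each strain. In cen4- 2 were higher and 6 lower (50.4% of all genes called), and in CEN4 1 was higher and 7 lower (45.9%). The share of all genes called was also largest in this step, and the steps differ in length. Between 30 and 60 min 3 of 9 were called in cen4-, where 31.2% of genes were, and 5 of 9 in CEN4, where 30.1% were. Leaving out 1 of the 6 libraries compared ended the call of PHO84 in cen4- in 5 fits, of PHO8 in cen4- in 3 and of PHM8 in CEN4 in 4. Between 120 and 180 min 5 of 9 were called in cen4- (24.6% of genes) and 5 of 9, each of them lower, in CEN4 (15.8% of genes, 8.24% lower). In CEN4 edgeR and DESeq2 each called 4, and leaving out 1 library gave 2 to 4. The small step of SPL2 there was lost under 12 of 16 alternatives, and that of PHO86 without any 1 of 4 of the 6 libraries.

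PHO5 peaked at 60 min in both strains. In the CEN4* strain it had 784, 726 and 823 normalised counts at 0 min, 667, 689 and 701 at 30 min, 1095, 1121 and 1156 at 60 min, 651, 653 and 612 at 120 min, ending with 539.7, 534 and 532 at 180 min. In CEN4 it had 948, 916 and 948 at 0 min, 858, 751 and 667 at 30 min, 1220.5, 1091 and 1102 at 60 min, 654, 597 and 671 at 120 min, ending with 605, 597 and 595 at 180 min. In both strains all 3 libraries at 60 min lay above every library of the other times. From 30 to 60 min PHO5 rose by log2 0.71 ± 0.06, adjusted p = 1.6e-15 in cen4- and 0.59 ± 0.06, adjusted p = 1.4e-12 in CEN4, and from 60 to 120 min the log2 step was -0.81 ± 0.06, adjusted p = 1e-18 in cen4- and -0.83 ± 0.06, adjusted p = 2.2e-18 in CEN4.

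PHO5 has close relatives, and their coding sequences share 86.5% of bases between PHO5 and PHO3, 83.6% between PHO5 and PHO11 and 83.5% between PHO5 and PHO12. The longest identical run with any of them was 98 bases, and no 100-base window of the PHO5 coding sequence occurs elsewhere in the genome. Shorter reads could still be shared in part, whereas PHO11 and PHO12 are 99.7% identical and their values are uncertain. PHO3, an acid phosphatase that is not repressed by phosphate and lies next to PHO5 on chromosome II, was expressed far above it: in the CEN4* strain it averaged 9939 ± 54.5 at 0 min before falling to 5414 ± 148 at 30 min, with 9730.4 ± 321 at 60 min, and in CEN4 the averages for those times were 9734 ± 195, 4326 ± 123 and 8083 ± 311. PHO3 dipped at 30 min (log2 change -0.88 ± 0.04, adjusted p = 1.6e-29 in cen4- and -1.17 ± 0.04, adjusted p = 7.4e-36 in CEN4) and at 60 min its log2 change was -0.03 ± 0.04, adjusted p = 0.5 in cen4- and -0.27 ± 0.04, adjusted p = 8.6e-09 in CEN4, whereas PHO5 at 60 min was above its own (log2 change 0.53 ± 0.06, adjusted p = 9.2e-12 in cen4- and 0.28 ± 0.06, adjusted p = 5e-05 in CEN4). Pearson's r of the log2 values of PHO5 and PHO3 over the 30 libraries was 0.69. Whether reads of PHO3 contribute to the shape of PHO5 was not tested.

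**Figure D4:**
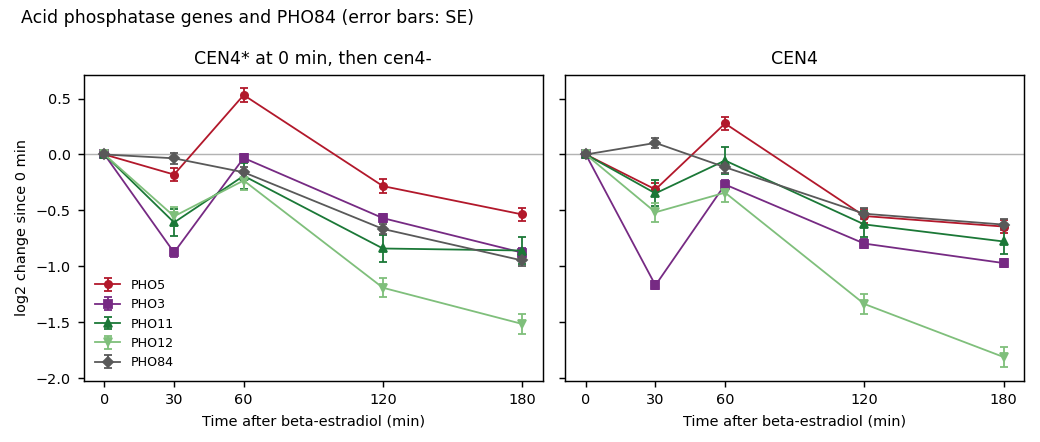
Log2 change since 0 min (vertical axis, SE as bars) of PHO5, its relatives PHO3, PHO11 and PHO12, and PHO84, in the CEN4* strain (left) and CEN4 (right). At 60 min PHO5 is above its 0 min level in both panels (0.53 in cen4- and 0.28 in CEN4), with PHO3 at -0.03 and -0.27; equal library totals lift the median gene at that time by 0.17 in cen4- and 0.16 in CEN4, which is more than the PHO3 value in cen4-.

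PHM8 climbed while the uptake genes fell. In the CEN4* strain it had 521, 493 and 515 normalised counts at 0 min, averaged 676 ± 28.9 at 30 min and 702 ± 43.3 at 60 min, and had 1032, 1049 and 1072 at 120 min, ending with 1247, 1206 and 1234 at 180 min. In CEN4 it had 313, 316 and 281 at 0 min, averaged 470.4 ± 11.9 at 30 min and 527 ± 27.0 at 60 min, and had 629, 693 and 669 at 120 min, ending with 526, 537 and 493 at 180 min. Every library after 0 min was above the 0 min libraries of its strain. From 120 to 180 min PHM8 rose further in cen4- (log2 0.23 ± 0.06, adjusted p = 0.0021) and fell back in CEN4 (log2 -0.36 ± 0.06, adjusted p = 3.6e-06). Environmental stress genes moved alongside: all 8 were higher at 180 min than at 0 min in each strain, where 37.5% of all genes in cen4- and 36.0% in CEN4 were called higher. Their summed levels at 180 min were 102684 to 106365 in cen4- and 47090 to 50130 in CEN4. Their part in the course of PHM8 was not tested.

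PHO8 also went against the uptake genes, by less. In the CEN4* strain it averaged 1852 ± 38.1 normalised counts at 0 min, 2409 ± 53.2 at 30 min, 2212 ± 86.6 at 60 min, 2439 ± 65.8 at 120 min and 2398 ± 75.7 at 180 min. In CEN4 the averages were 1721 ± 72.3, 2212 ± 68.0, 1973 ± 82.8, 1893 ± 131 and 1796 ± 55.9. PHO8 rose in both strains at 30 min (log2 0.38 ± 0.04, adjusted p = 1.4e-11 in cen4- and 0.36 ± 0.04, adjusted p = 5.7e-11 in CEN4). The later course differed: at 180 min the change since 0 min was 0.37 ± 0.04, adjusted p = 1.5e-11 in cen4-, and 0.06 ± 0.04, adjusted p = 0.19 in CEN4, where it did not pass the test, although with equal totals it did (log2 0.27).

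The excision effect, the change since 0 min in cen4- minus the change since 0 min in CEN4, asks in which genes the change with time differed between the strain with lox sites and the control. Loss of the centromere and other differences between the strains, such as the place of the recombinase gene, cannot be told apart. PHO89 was picked for the changes with time that its excision effect is made of, so its values are a description at every time. At 30 min 0 of the 9 members other than PHO89 were called by limma, edgeR or DESeq2, where limma called 1.85% of all genes. PHM8 had an unadjusted p under 0.05 by limma (log2 -0.23 ± 0.08, adjusted p = 0.17), and the value of PHO89 was log2 -0.44 ± 0.18. At 60 min 1 was called, PHM8 (log2 -0.34 ± 0.08, adjusted p = 0.0081), against 2.91% of all genes, and this call was lost without CEN4 replicate 3 at 0 min or cen4- replicate 1 at 60 min. At 120 min 3 were higher and none lower (11.9% of all genes higher, 14.2% lower and 26.1% in either direction): PHO5 (log2 0.27 ± 0.08, adjusted p = 0.012), PHO8 (0.26 ± 0.06, adjusted p = 0.00071) and PHO81 (0.27 ± 0.07, adjusted p = 0.002). The call of PHO5 was lost without CEN4 replicate 2 at 120 min or CEN4* replicate 2 at 0 min. At 180 min 4 of the 9 members other than PHO89 were higher and 2 lower, against 19.8% and 22.5% of all genes and 42.3% in either direction, and their median effect was 0.11, against -0.01 over all genes. With PHO89 counted, as a description only, 5 of 10 were higher and 2 lower, and with equal totals 6 of 10 were higher and 1 lower. Of the same 10 genes, edgeR and DESeq2 each called 5, against 7 by limma. Over all genes, equal totals gave 1856 higher and 788 lower, against 1180 higher and 1336 lower as deposited.

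At 180 min the members moved in both directions. PHM8 rose more in cen4- (log2 0.50 ± 0.08, adjusted p = 9.2e-07), as did PHO8 (0.31 ± 0.06, adjusted p = 3e-05). VTC3 fell less (0.18 ± 0.07, adjusted p = 0.023), and the change of PHO81 was higher in cen4- (0.21 ± 0.07, adjusted p = 0.013). PHO84 fell more in cen4- (-0.32 ± 0.07, adjusted p = 0.00022), as did VTC1 (-0.14 ± 0.06, adjusted p = 0.049). PHO5 (log2 0.11 ± 0.08, adjusted p = 0.31), PHO86 (-0.01 ± 0.06, adjusted p = 0.88) and SPL2 (-0.08 ± 0.14, adjusted p = 0.67) did not pass the test. The calls of PHM8, PHO8 and PHO84 held under every alternative and every left-out library, whereas that of VTC1 was lost under 14 of 23, 9 of them a left-out library. The call of VTC3 was lost under 6, including edgeR and leaving out CEN4 replicate 1 or CEN4* replicate 2 or 3 at 0 min or cen4- replicate 2 at 180 min. PHO81 was not called without CEN4 replicate 3 at 180 min or CEN4* replicate 2 at 0 min. PHO89 was picked for its fall in both strains, the changes that its excision effect is made of, so its value at 180 min (log2 0.52 ± 0.18) is a description; limma called it, and edgeR and DESeq2 did not. In the same comparison the 6 MATa markers were lower, with a median of -0.76, and of the 8 stress genes 3 were higher and 3 lower. Of all genes, 19.8% were higher and 22.5% lower. The part of the markers and stress genes in these values was not tested.

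PHO8 is the member on chromosome IV, whose centromere was cut out; the gene lies 968729 bases from the centromere at chrIV:449711-449821. At 180 min the median excision effect was 0.14 over the 768 tested genes of chromosome IV and -0.03 over the 5177 genes of the other nuclear chromosomes, and PHO8, at 0.31, stood above 73.8% of chromosome IV genes. At 120 min the medians were 0.11 on chromosome IV and -0.02 elsewhere, and PHO8, at 0.26, stood above 79.7% of chromosome IV genes. How far the value of PHO8 follows from its chromosome was not tested.

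**Figure D5:**
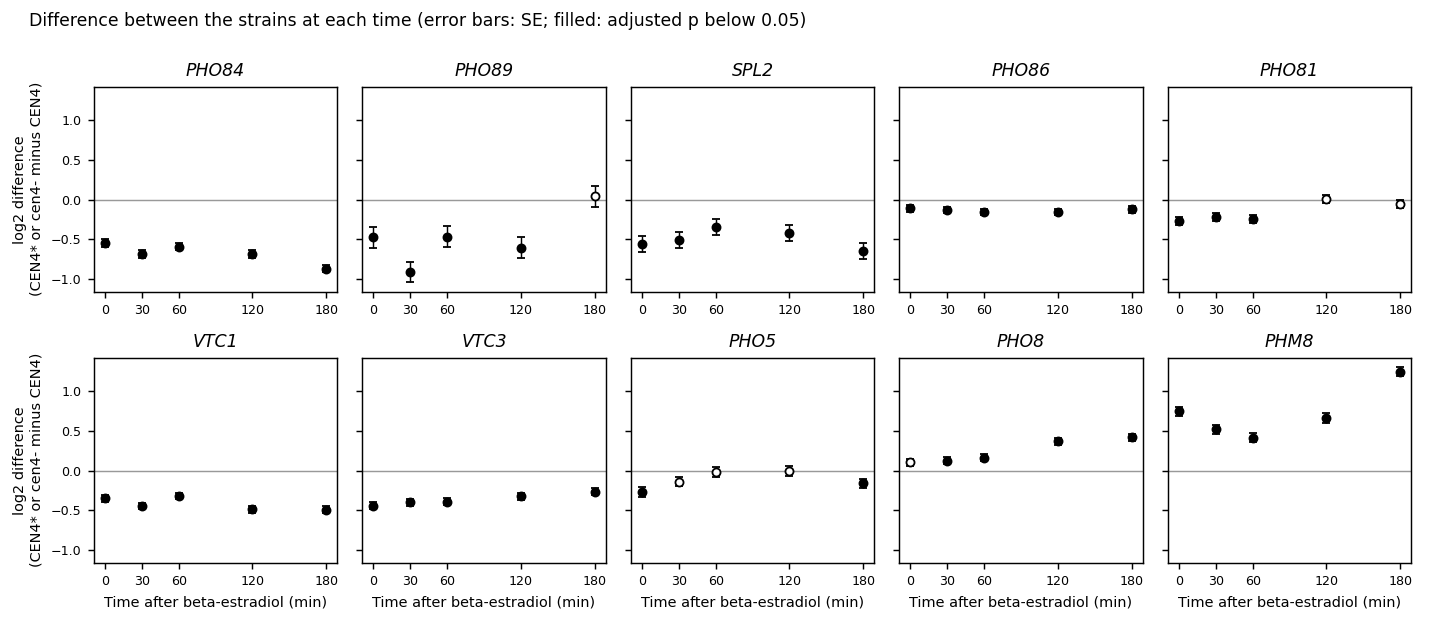
Difference between the strains (CEN4* or cen4- minus CEN4, log2, SE as bars) at each time for each gene. Filled points have an adjusted p below 0.05, and the points of PHO89 are a description only. PHO84, SPL2, VTC1 and VTC3 are below 0 at all 5 times, PHM8 is above 0 at all 5 times and widest at 180 min (1.24), and PHO89 and PHO81 end near 0; the small PHO86 difference at 180 min changes sign with equal totals.

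Compared directly at each time, most members were called. At 120 and 180 min so were most of all tested genes, and the counts at those times say little of the regulon. At 30 min 2 of 10 were higher in cen4- and 7 lower (30.2% of all genes called), and at 60 min again 2 and 7 (27.0%). At 120 min 2 were higher and 6 lower (52.8%), and at 180 min 2 and 6 (64.1%), or 4 and 5 at 120 min and 2 and 4 at 180 min with equal totals. PHO84 at 180 min had 3982, 3792 and 3619 normalised counts in cen4- against 6948, 6937 and 6890.3 in CEN4, a ratio of 0.548 (log2 -0.87 ± 0.05, adjusted p = 2e-17). PHM8 at 180 min was 2.37 times its CEN4 level (log2 1.24 ± 0.06, adjusted p = 2e-28). The PHO89 gap of 0 min was no longer seen at 180 min, with 72.5, 75.6 and 72.2 in cen4- and 91.7, 61.9 and 63.9 in CEN4, which overlapped (log2 0.04 ± 0.13). PHO89 is included in the counts above, but it was picked for its fall with time, so its values are a description only. PHO86 was lower by a small amount (log2 -0.12 ± 0.04, adjusted p = 0.0055), which turned to 0.036 with equal totals, and PHO5 was lower (log2 -0.16 ± 0.06, adjusted p = 0.014), a call lost with equal totals (adjusted p = 0.97). Since these differences and the changes since 0 min share libraries, they are not separate evidence.

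Per kilobase of coding sequence, VTC1, PHO84 and PHO86 were the most abundant members in both strains at 0 and 180 min. At 0 min in CEN4* the order was VTC1 (7445 ± 101 normalised counts per kb), PHO84 (4153 ± 158) and PHO86 (3504 ± 40.5), followed by PHO8, VTC3 and SPL2, with PHO5 and PHM8 overlapping, then PHO89 (449 ± 29.4) and PHO81 (258 ± 15.4). In CEN4 at 0 min VTC1, PHO84 and PHO86 led as well (9473 ± 205, 6065 ± 179.8 and 3784 ± 89.4), and PHM8 and PHO81 overlapped at the bottom. At 180 min in cen4- PHO86 (2427 ± 26.6) stood above PHO84 (2153 ± 103) with no overlap, and PHM8 had reached 1272 ± 21.5, while in CEN4 PHO84 (3926 ± 17.4) was still above PHO86 (2646 ± 101) and PHM8 was at 537 ± 23.6. PHO89 was the least abundant member in both strains at 180 min, at 42.6 ± 1.09 per kb in cen4- and 42.0 ± 9.65 in CEN4.

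Among other genes of the pathway, 10 further Pho4 targets divided at 0 min into 1 higher, 4 lower and 5 not called in CEN4* against CEN4. Of all tested genes, 8.83% were higher and 7.06% lower in that comparison. PHM6, a starvation-induced gene of unknown function, was lower (log2 -0.59 ± 0.09, adjusted p = 1.7e-06), as were PHO12, VTC4, the polyphosphate polymerase, and VTC2. HOR2, a glycerol phosphatase also induced by osmotic stress, was higher (0.51 ± 0.06, adjusted p = 4.4e-08). For the excision effect at 180 min 3 of the 10 were higher and 2 lower, a share near the 42.3% of all genes called; the largest were CTF19, a kinetochore gene divergent from VTC3 (0.37 ± 0.14, adjusted p = 0.036), GDE1, a glycerophosphocholine phosphodiesterase (0.36 ± 0.08, adjusted p = 0.00028), and PHO12 (0.30 ± 0.12, adjusted p = 0.045). With time, 4 of these 10 were higher and 5 lower at 180 min in cen4-, and 2 higher and 5 lower in CEN4, where 75.2% of all genes in cen4- and 71.2% in CEN4 were called. The calls of CTF19 and PHO12 were lost with edgeR, with DESeq2 and without each of 5 and 6 libraries. At 0 min 0 of the 8 signalling genes and 0 of the 9 genes of low-affinity transport and other roles were called by limma, edgeR or DESeq2. By limma 1 and 2 had an unadjusted p under 0.05, and 15.9% of all tested genes were called. With so few genes in each list, 0 called is not read as a contrast with that share.

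At 180 min the excision effect on the signalling genes was 3 higher and 2 lower of 8, with 42.3% of all genes called. PHO2, the partner of Pho4, was the highest (excision effect log2 0.68 ± 0.09, adjusted p = 1.7e-09); its level at 180 min was 765 ± 9.16 in cen4- libraries, with 456 ± 16.5 in CEN4 libraries. PHO2 lies on chromosome IV, as does KCS1, an inositol polyphosphate kinase (0.27 ± 0.06, adjusted p = 0.00011). DDP1, an inositol pyrophosphate phosphatase, was lower (-0.29 ± 0.08, adjusted p = 0.0014). PHO4 itself was lower by less (-0.22 ± 0.07, adjusted p = 0.0093). Of the 9 low-affinity and other genes, none was higher and 3 were lower by limma, against 22.5% of all genes lower and 42.3% in either direction. For the same 9 genes edgeR called 5 and DESeq2 3. Those called by limma were PHO88, an endoplasmic reticulum protein involved in phosphate transport (-0.54 ± 0.06, adjusted p = 1.8e-11), and the polyphosphatases PPN2 (-0.41 ± 0.07, adjusted p = 2.6e-06) and PPX1 (-0.20 ± 0.06, adjusted p = 0.0082). The call of PPX1 was lost with equal totals and without CEN4* replicate 1 at 0 min.

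Genes other than the 10 members whose log2 values followed a member most closely over the 30 libraries were found among 5574 genes, by Pearson's r and as a description only, since the libraries share strain and time. Nearest to PHO84 were VMA16 (0.954), a subunit of the vacuolar proton pump, GDT1 (0.954), a Golgi calcium transporter, and VTC4 (0.950), itself among the further Pho4 targets above. PHO89 was most like INA1 (0.985), YML018C (0.985), both without a known function, and HXT2 (0.978), a high-affinity glucose transporter. The genes nearest to PHO5 were PGA3 (0.882), PLB2 (0.861), a phospholipase B, and AIM20 (0.839), lower values than for the other two. Within the regulon, r with PHO84 was 0.96 for VTC1, 0.93 for VTC3, 0.91 for SPL2, 0.85 for PHO86 and 0.72 for PHO89. It was 0.70 for PHO81, 0.58 for PHO5, -0.53 for PHO8 and -0.90 for PHM8.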

How the data were processed

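The deposited signal values are reads per gene divided by a DESeq2 size factor, as the deposited table's name and its steps of whole reads show; STAR 2.6.1, DESeq2 and the genome R64 (sacCer3) are what the authors name, per the submitters' processing notes. How reads were counted, with which annotation and strand setting, is not given in the sources used here. All values were whole multiples of 1 read within 1e-06 (100% of values), so reads were recovered for count tests; totals were 8218002 to 14956813 reads.

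The 10 members and the lists of other genes were chosen with earlier results of these data known. Levels were tested with limma 3.58.1 (R 4.3.3; trend and robust options, a mean per group, 20 residual degrees of freedom) on log2(value + 1) for 5948 genes with a mean of at least 10, so fold changes of low genes are understated. Adjusted p is Benjamini-Hochberg over all tested genes within each of 23 comparisons, with a threshold of 0.05. Chi-square per degree of freedom between replicates was 1.48 to 7.75 over 30 pairs, so no library was counted as a repeat. Simulated data for the excision effect at 180 min (5921 genes) gave back 92.9% of genes changed by log2 1 and 65% of those changed by 0.5. The simulated counts had the same preset spread for every gene, not estimated from the libraries, so these shares do not give the power of the reported tests.

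Named genes were all members, up to 3 called genes of each other pathway list with the largest excision effect at 180 min, and the 3 genes most correlated with PHO84, PHO89 and PHO5 (mean of at least 50); PHM6, VTC4, VTC2, HOR2 and PHO4 were named after their values were seen. HOR2 (GPP2 in RefSeq) and PPN2 were matched through RefSeq locus tags. Alternatives were pseudocounts of 0.5 and 4, no filter, a mean of at least 50, equal library totals, limma without trend and robust or with array weights, only the libraries of the groups compared, edgeR 4.0.16 (TMM) and DESeq2 1.42.0 on recovered reads, a replicate block, and leaving out each library. Promoters and coordinates came from the R64 genome of RefSeq, read with Biopython 1.88. Counting error alone limits a gene at 0 to under 3 reads a library.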

Additional observations from a re-analysis of the deposited data

Results flagged for a closer look

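The change since 0 min differed between the strains, by the test of the difference itself, for members of the regulon at 3 times. At 60 min this was PHM8 (log2 -0.34). At 120 min it was PHO5 (0.27), PHO8 (0.26) and PHO81 (0.27). At 180 min it was PHM8 (0.50), PHO8 (0.31), PHO81 (0.21) and VTC3 (0.18), which were higher in cen4- than the change in CEN4 would give, and PHO84 (-0.32) and VTC1 (-0.14), which were lower. PHO89 (0.52) was called as well at 180 min by limma, but not by edgeR or DESeq2, and it was picked for the changes with time that this value is made of. Among the other pathway genes named for 180 min, CTF19 (0.37), GDE1 (0.36), PHO12 (0.30), PHO2 (0.68) and KCS1 (0.27) were higher, and DDP1 (-0.29), PHO88 (-0.54), PPN2 (-0.41) and PPX1 (-0.20) were lower. PHM8 turned from a lower value at 60 min to a higher one at 180 min; the difference between these times was not tested. PHO2, KCS1 and PHO8 lie on chromosome IV.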

How the results depend on the processing

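In this section, counts for the excision effect and for differences between the strains are of all 10 members, with PHO89 counted. For the excision effect at 180 min limma called 7 of these 10, and edgeR and DESeq2 5 each. Pseudocounts of 0.5 and 4, no filter, a mean of at least 50, edgeR and DESeq2 kept each count of called members within 1.5 times of the reported one. The counts moved under the other settings. Array weights called 1 member for the excision effect at 30 min against 0, 2 at 60 min against 1, 5 for the step from 30 to 60 min in cen4- against 3 and 3 for the step from 120 to 180 min in CEN4 against 5; using only the libraries compared gave 2 at 60 min and 3 for that last step, and leaving out trend and robust gave 3 for it. Equal totals gave 4 members for the change at 60 min in cen4- and 5 in CEN4 against 8 each, and 1 for the step from 30 to 60 min in cen4-. With equal totals PHO84 and VTC1 turned to 0.011 and 0.063 in cen4- at 60 min and to 0.049 and 0.028 in CEN4, and the PHO86 difference at 180 min to 0.036, with adjusted p from 0.20 to 0.84; that scaling shifts the median gene. Leaving out 1 library gave 0 to 2 called members for the excision effect at 60 min, where PHM8 was lost without CEN4 replicate 3 at 0 min or cen4- replicate 1 at 60 min, and 4 to 7 at 180 min, where 4 were left without CEN4 replicate 3 at 180 min or CEN4* replicate 2 or 3 at 0 min. It gave 1 to 3 for the step from 30 to 60 min in cen4- (lowest without cen4- replicate 1 or 2 at 60 min), 3 to 5 in CEN4 (lowest without replicate 1 at 30 or 60 min) and 2 to 4 for the step from 120 to 180 min in CEN4 (lowest without replicate 2 at 180 min). Title numbers do not pair the libraries: same-numbered deviations had r of -0.10 to 0.12 over 15 pairs, and 12 of 30 libraries correlated best with their own number. A fit with the replicate block called 8 members at 0 min and 6 for the excision effect at 180 min, ended the calls of PHO86 at 0 min (adjusted p = 0.056), of VTC1 at 180 min (0.057) and of PHO12 at 180 min, and ended no other call; its count at 120 min was 4 against 3. Leaving PHO89 out of the count, chosen after seeing the data, gave 6 of 9 for the excision effect at 180 min. Depth limits PHO89 most, at 48 reads in its lowest library.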
